A study of Mus musculus with 6 samples.

Results

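The genes described here are 36 members of the unfolded protein response and of the linked amino acid stress response, read in glomeruli of mice with and without Vhl in podocytes. They were chosen by name: every probe set whose symbol in the array's annotation is one of the 36 was taken, which gave 86 of the 45101 probe sets on the array, and all 36 genes were found among 18193 genes with a single symbol. The study compared 3 mice in which a podocin-Cre transgene (Pod-Cre) had excised a floxed Vhl gene, called Vhl-deleted here, with 3 wild-type littermates. All 6 mice were female and 6 weeks old. The podocin promoter restricts Cre to podocytes, epithelial cells wrapped around the capillaries of the glomerulus, so the other glomerular cells keep Vhl. Only Vhl-deleted mice whose urine albumin at 4 weeks did not exceed the mean of wild-type littermates were used. The labels do not say whether the wild-type mice carried floxed alleles.

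Glomeruli were isolated with magnetic beads, and RNA of each mouse was hybridised to 1 Affymetrix array. The deposited values are MAS5 signals, a measure of brightness on a linear scale, and the median signal lay between 96.1 and 107.5 in Vhl-deleted and between 94.6 and 103.1 in wild-type arrays. Changes are log2 differences of signal + 28, Vhl-deleted minus wild-type, with n = 3 arrays per group throughout, a number that limits how precise each value can be. Of 11159 genes tested with limma, 8 rose and 1 fell, which is 0.0807% called. The brighter Vhl probe set read 612, 619 and 606 in Vhl-deleted and 809, 665 and 707 in wild-type arrays. The other read 233, 196 and 216 in Vhl-deleted and 228, 237 and 273 in wild-type arrays, with the groups overlapping, and the labels do not say whether either lies within the excised exon or exons. Podocyte markers were bright in every array (Podxl, for podocalyxin, had signals between 23771 and 29861 in Vhl-deleted and between 25462 and 30441 in wild-type arrays), and 0 of 17 podocyte markers with a probe set had a mean level under the brightness filter described below. Of these 17, 13 had negative and 4 positive differences (median -0.30), and 0 were called. The groups did not overlap in 3 that were lower in Vhl-deleted arrays, beside 5.64% of all genes tested, and in 1 that was higher, beside 5.04%.

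Proteins that enter the endoplasmic reticulum (ER) are folded there by chaperones and disulfide isomerases. When folding capacity is short, 3 sensors in the ER membrane respond: IRE1 (Ern1) splices the mRNA of the transcription factor XBP1, ATF6 is cut to release a transcription factor, and PERK (Eif2ak3) phosphorylates eIF2alpha. XBP1 and ATF6 induce chaperones and the machinery that sends misfolded proteins to the proteasome. Phosphorylated eIF2alpha slows translation in general but raises that of ATF4, which induces genes of amino acid synthesis and transport. The kinase GCN2 reaches ATF4 in the same way when amino acids are short. Podocytes secrete basement membrane proteins and carry large glycoproteins on their surface, and both kinds of protein pass through the ER.

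No member of the set passed the threshold. Of the 36 genes, 34 were bright enough to be tested, and 0 of these 34 had an adjusted p under 0.05 (limma with Benjamini-Hochberg adjustment over all genes; the lowest was 0.343, for Derl3). At an unadjusted p under 0.05 there were 2 of 34, Derl3 and Dnajb9, beside 4.92% of all genes tested. All 3 wild-type signals of Derl3 lay below the brightness filter, so it was tested only through the group where it was high. Its place in these counts is therefore no support for a change. The groups did not overlap in 2 members that were higher in Vhl-deleted arrays, Derl3 and Sec61b, beside 5.04% of all genes, and in 1 that was lower, Dnajb9, beside 5.64%. The 13 ER chaperones and folding enzymes had a median change of -0.08 and the 8 genes of ER degradation and translocation one of -0.10. The 7 tested genes of the ATF4 group had a median of 0.15 (0.08 without wild-type replicate 1 and at most 0.23 with any other array left out), and the median of all genes tested was 0.00. The difference between the chaperone and the ATF4 medians was not tested. The chaperone median turned to 0.01 without Vhl-deleted replicate 3 and to 0.05 without wild-type replicate 3, so its sign rests on each of these arrays.

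**Figure D1:**
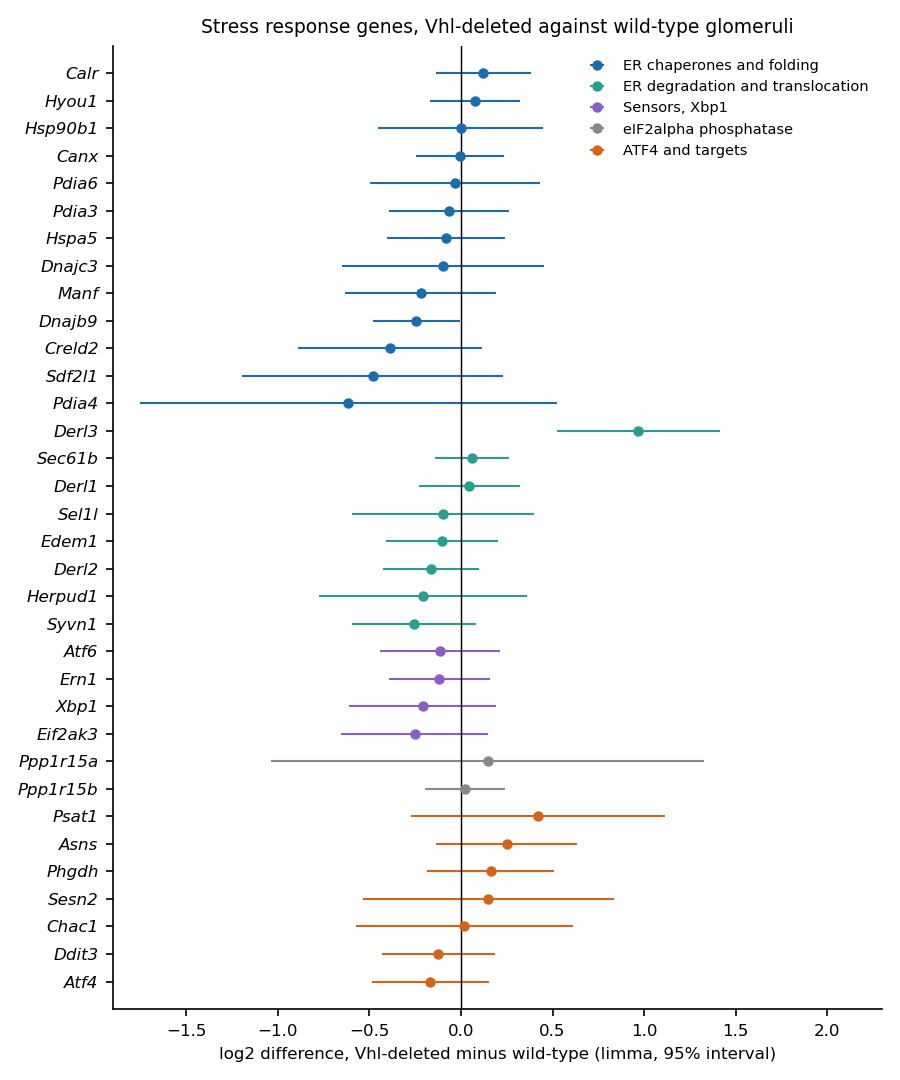
Log2 difference of signal + 28 (horizontal axis, Vhl-deleted minus wild-type, n = 3 arrays each) for the 34 tested members, with the 95% interval of the limma fit, coloured by role. The intervals of 32 members cross 0; that of Derl3 runs from 0.52 to 1.41 and that of Dnajb9 from -0.48 to -0.01, and neither gene passed after adjustment.

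The intervals give the sizes of change that these arrays leave possible. In 29 of the 34 members the 95% interval lay within 1 log2 unit of 0 on either side, and in 17 of 34 within 0.5. The 5 whose interval reached beyond 1 were Pdia4, Sdf2l1, Psat1, Ppp1r15a and Derl3. The missed threshold in the other members therefore does not show that they were alike in the groups, but a change of more than 1 log2 unit lay outside the interval of each. These intervals are for the mixed RNA of whole glomerular samples, in which only podocytes lost Vhl. A change confined to podocytes would be diluted by RNA of the other cells, and its size was not measured.

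Among the chaperones, Hspa5 encodes BiP, the main ER chaperone of the Hsp70 family, whose release from the sensors is part of their activation. Its signal was 19017, 20558 and 15758 in Vhl-deleted replicates 1 to 3, against 17582, 19013 and 21827 in wild-type replicates 1 to 3. The groups overlapped, and the lowest and the highest values were both in a replicate 3. Hspa5 averaged 18444 ± 2451 in Vhl-deleted and 19474 ± 2160 in wild-type arrays (SD, n = 3 each), a difference of -0.08 (95% interval -0.40 to 0.24, limma adjusted p = 0.945).

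Hsp90b1 encodes GRP94, the ER member of the Hsp90 family. It read 12413, 12707 and 8112 in Vhl-deleted arrays, against 11188, 9613 and 11915 in wild-type arrays, a difference of -0.0007 (95% interval -0.45 to 0.45). Hsp90b1 was at 0.21 on the same scale without Vhl-deleted replicate 3, whose signal was the lowest of the 6. The lectin chaperones calreticulin (Calr) and calnexin (Canx), which hold newly made glycoproteins, were at 0.12 (95% interval -0.14 to 0.38) and -0.0058 (-0.25 to 0.24). Calr ranged from 0.07 without wild-type replicate 1 to 0.20 without wild-type replicate 3. A second Canx probe set was at -0.33, with 4081 in wild-type replicate 3 against 1851 to 2442 in the other 5 arrays.

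Dnajb9 encodes ERdj4, a cochaperone of BiP that represses IRE1. It was the 1 chaperone gene whose groups did not overlap, with 5203, 5817 and 5278 in Vhl-deleted arrays, against 5984, 6480 and 6869 in wild-type arrays. Every Vhl-deleted value lay below every wild-type value. The difference was -0.24 (SE 0.10, unadjusted p = 0.0447, limma adjusted p = 0.944), and it lay between -0.31 and -0.18 under the 22 alternatives. Only 1 probe set measures it.

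Several cochaperones and secreted helpers of the ER had negative differences with wider intervals. Sdf2l1, a partner of the ERdj3 cochaperone, read 417, 599 and 398 in Vhl-deleted arrays, against 602, 455 and 1036 in wild-type arrays. Creld2, a secreted ER protein, read 1118, 1402 and 878 in Vhl-deleted arrays, against 1326, 1273 and 1868 in wild-type arrays. In both genes wild-type replicate 3 was highest and Vhl-deleted replicate 3 lowest, and the groups overlapped. Sdf2l1 was at -0.48 (95% interval -1.19 to 0.23) and Creld2 at -0.39 (-0.89 to 0.11), and their values without wild-type replicate 3 were -0.17 and -0.22. Manf, a small ER protein that is secreted under stress, was at -0.22 (-0.63 to 0.19), and at -0.04 without Vhl-deleted replicate 3. Dnajc3, which encodes the eIF2alpha kinase inhibitor p58IPK that also serves as a BiP cochaperone, was at -0.10 (-0.65 to 0.45), and Hyou1, an Hsp110-like exchange factor of BiP, at 0.08 (-0.17 to 0.32), with a second Hyou1 probe set at -0.05 and a value of 0.03 without Vhl-deleted replicate 1.

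Of the protein disulfide isomerases, Pdia4 varied most. It read 645, 626 and 440 in Vhl-deleted arrays, against 671, 487 and 2030 in wild-type arrays. The value of wild-type replicate 3 stood alone, and the other wild-type arrays lay within the range of the Vhl-deleted ones or close to it. The difference of -0.62 (95% interval -1.75 to 0.52) was -0.02 without that array. The second Pdia4 probe set was dim, between 4.70 and 75.8, and was also highest in wild-type replicate 3. Pdia3, the isomerase that works with the lectin chaperones, was at -0.06 (-0.39 to 0.26), and Pdia6, which acts on IRE1 and PERK, at -0.03 (-0.50 to 0.43).

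**Figure D2:**
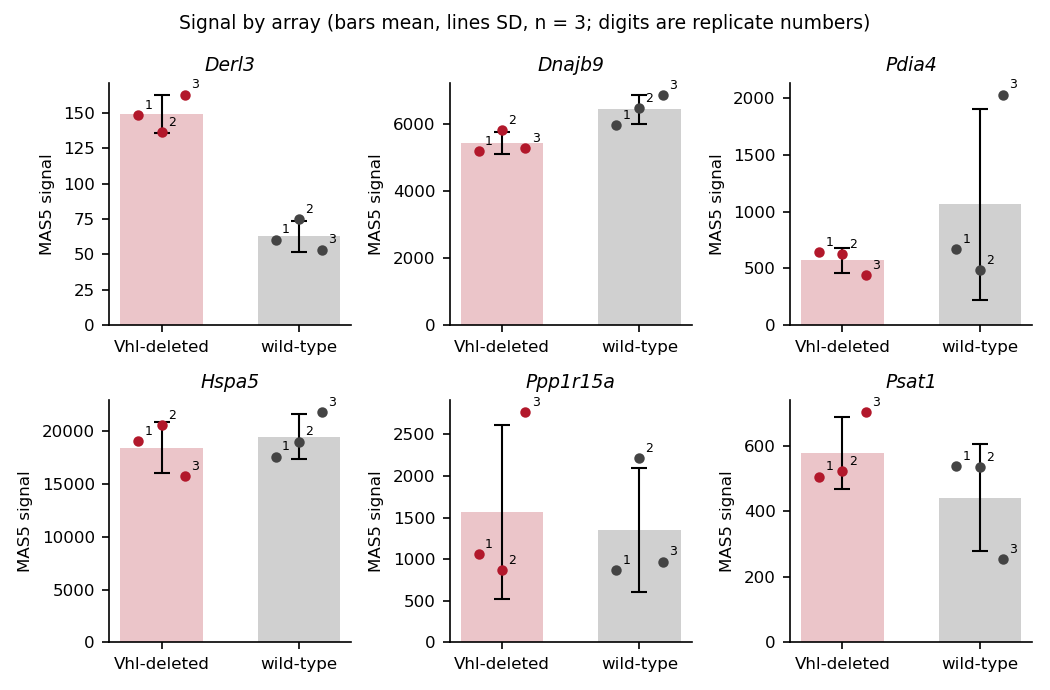
MAS5 signal (vertical axis, linear, from 0) of 6 members in the 3 Vhl-deleted and 3 wild-type arrays, with a point per array marked by its replicate number, bars for the mean and lines for the SD. Derl3 and Dnajb9 separate the groups, while in Pdia4 (2030), Ppp1r15a (2773 and 2214) and Psat1 (253) single arrays lie far from the others of their group.

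Many chaperones had their extreme values in the same arrays. Vhl-deleted replicate 3 held the lowest value of 10 of the 13 chaperones, where it held the lowest of 23% of all genes tested. Wild-type replicate 3 held the highest value of 9 of the 13, where it held the highest of 31.2% of all genes. The mean log2 level of the 13 genes was 12.00, 12.12 and 11.70 in Vhl-deleted and 12.00, 11.91 and 12.39 in wild-type arrays. The 2 extreme arrays are thus 1 of each group, and the remaining 4 lay between 11.91 and 12.12.

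Markers of other cells also differed in these arrays. The mean level of 20 proximal tubule markers was 12.19, 12.21 and 12.95 in Vhl-deleted arrays, against 12.34, 12.70 and 10.65 in wild-type arrays. Their summed signal ran from 152879 to 235673 in Vhl-deleted and from 62608 to 193597 in wild-type arrays, and 0 of the 20 had a mean level under the brightness filter. Miox, an enzyme of inositol breakdown in the proximal tubule, read 15359, 13570 and 21682 in Vhl-deleted arrays, against 16425, 17154 and 3193 in wild-type arrays. The mean of 17 podocyte markers was 12.50, 12.44 and 12.21 in Vhl-deleted arrays, against 12.48, 12.47 and 12.87 in wild-type arrays, with summed signals from 126356 to 155016 in Vhl-deleted and from 140006 to 180695 in wild-type arrays. Markers of immune cells did not overlap in their mean, at 9.38, 9.29 and 9.73 in Vhl-deleted arrays, against 9.20, 8.90 and 8.66 in wild-type arrays (11 tested genes, 0 called). Of these 11, 6 did not overlap between the groups, all higher in Vhl-deleted arrays, beside 5.04% of all genes tested. Of the 17 listed, 6 had a mean level under the brightness filter. The summed signals of the 17 ran from 9560 to 14133 in Vhl-deleted and from 5766 to 8228 in wild-type arrays. The part of immune cells in the difference of Derl3 and of other members was not tested. The array with the lowest tubule level had the highest podocyte and chaperone levels, and the array with the highest tubule level had the lowest of both. The part of the cell mixture in the chaperone values was not tested beyond a fit with the tubule mean as a covariate, which gave a chaperone median of 0.04. In such bulk samples, fewer cells of a type and less RNA per cell cannot be told apart.

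**Figure D3:**
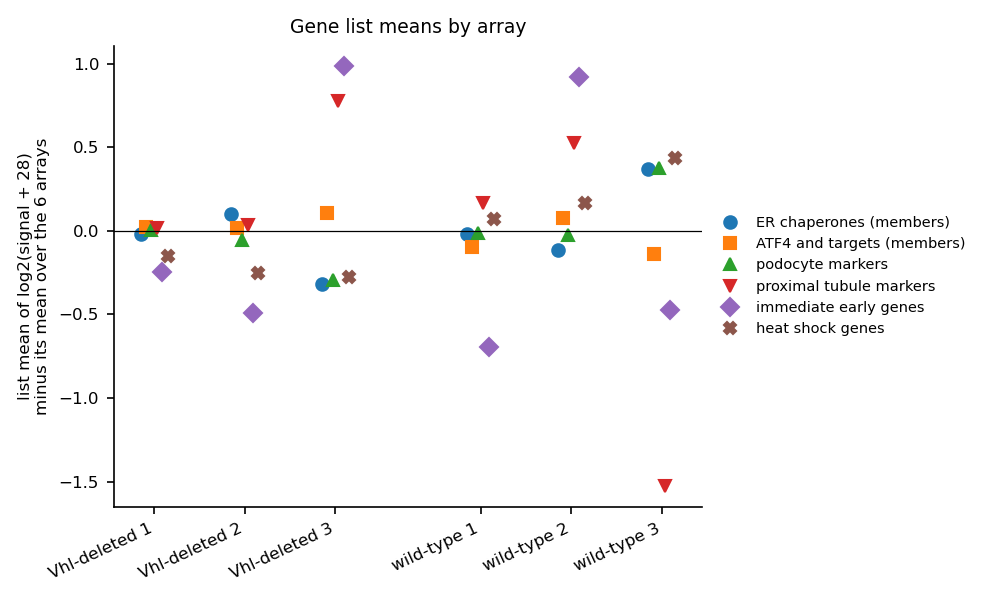
Mean level of 2 member groups and of 4 other gene lists in each array, as the mean of log2(signal + 28) minus its mean over the 6 arrays (vertical axis). Wild-type replicate 3 has the highest chaperone and podocyte means and the lowest proximal tubule mean (10.65 before centring), and Vhl-deleted replicate 3 has the lowest chaperone and podocyte means and the highest tubule mean (12.95).

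Promoter sequences are shown because the ER stress response element in them is what links many chaperones to the sensors. The element, CCAAT followed by 9 bases of any kind and CCACG, is bound by NF-Y together with ATF6 or XBP1. It was searched on both strands in windows from 250 bases before to 50 after the start (RefSeq, build GRCm38.p6). Of the 36 members, 31 had such a window. The element was found in 7 of 11 chaperones with a window, which is 63.6%, beside 0.137% of 27025 genes. In the group of ER degradation and translocation it was found in 2 of 7 genes, Derl3 and Syvn1, and in 0 of 9 genes of the ATF4 group. The chaperones are known for this element, and a match is a description of the letters, not a shown binding site or a cause. Each match is printed in the orientation of the element, with its fixed letters in capitals.
Hspa5 (chr2:34772025-34772043, + strand): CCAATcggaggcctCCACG
Hsp90b1 (chr10:86705638-86705656, − strand): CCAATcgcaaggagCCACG
Hsp90b1 (chr10:86705533-86705551, + strand): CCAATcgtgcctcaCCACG
Calr (chr8:84847075-84847093, + strand): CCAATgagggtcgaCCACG
Canx (chr11:50325800-50325818, − strand): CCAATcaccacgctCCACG
Creld2 (chr15:88819520-88819538, − strand): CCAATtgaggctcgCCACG
Dnajc3 (chr14:118937827-118937845, + strand): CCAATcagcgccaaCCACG
Pdia6 (chr12:17266491-17266509, + strand): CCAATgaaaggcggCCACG
Syvn1 (chr19:6046532-6046550, + strand): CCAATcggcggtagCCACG
Derl3 (chr10:75893242-75893260, − strand): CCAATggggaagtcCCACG

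The spacer between the capitals differed from gene to gene while the flanking letters were fixed by the search. In Hspa5 the match lay from 65 to 47 bases before the start, and its window is printed whole as the best known promoter of this kind, with the element in capitals.
Hspa5 (chr2:34771840-34772139, + strand): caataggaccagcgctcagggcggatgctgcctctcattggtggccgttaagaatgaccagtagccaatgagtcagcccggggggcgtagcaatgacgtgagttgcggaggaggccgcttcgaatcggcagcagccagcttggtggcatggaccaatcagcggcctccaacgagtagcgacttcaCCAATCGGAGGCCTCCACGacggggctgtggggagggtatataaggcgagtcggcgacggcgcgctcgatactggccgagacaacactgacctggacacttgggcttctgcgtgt

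Among the genes of ER degradation, Derl3 had the largest difference of all 34 members. This rank is no support for a change, because Derl3 was tested only through the group where it was high. Derl3 encodes Derlin-3, a membrane protein of the channel through which misfolded proteins leave the ER, and is an inducible member of its family. Derl3 read 148, 136 and 163 in Vhl-deleted arrays, against 60.4, 74.8 and 53.4 in wild-type arrays. The groups did not overlap, and the lowest Vhl-deleted value lay well above the highest wild-type value. Derl3 averaged 149 ± 13.4 in Vhl-deleted and 62.9 ± 10.9 in wild-type arrays (SD, n = 3 each), a difference of 0.97 (SE 0.19, unadjusted p = 0.00132, limma adjusted p = 0.343).

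The signal of Derl3 was low, and only 1 probe set measures it. The filter kept probe sets above a mean of about 96.4, and all 3 wild-type values lay below it, so Derl3 entered the test through the Vhl-deleted arrays alone. Without any 1 of the Vhl-deleted arrays it was no longer kept. Where it could be fitted, its change lay between 0.61 and 1.14 and its adjusted p between 0.114 and 0.992, and it passed in none of the settings. Its window is printed because of this difference, with the element in capitals, which here runs against the direction of the gene.
Derl3 (chr10:75893148-75893447, + strand): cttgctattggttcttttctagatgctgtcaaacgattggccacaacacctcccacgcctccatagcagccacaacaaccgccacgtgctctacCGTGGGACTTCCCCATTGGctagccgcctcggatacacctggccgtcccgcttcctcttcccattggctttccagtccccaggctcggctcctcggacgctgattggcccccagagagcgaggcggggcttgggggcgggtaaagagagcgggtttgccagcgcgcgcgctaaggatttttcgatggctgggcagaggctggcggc

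The other Derlin genes each had more than 1 probe set. Derl1, which encodes the widely expressed Derlin-1, was at 0.05 (95% interval -0.23 to 0.32), and turned to -0.02 with median scaling. Of its other probe sets, 2 had the opposite sign (-0.03 and -0.14). Derl2 read 1787, 1800 and 1640 in Vhl-deleted arrays, against 1956, 1769 and 2156 in wild-type arrays, a difference of -0.16 (-0.43 to 0.10), and -0.09 without wild-type replicate 3. The second Derl2 probe set was at -0.40. The differences between the 3 Derlin genes were not tested.

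The ubiquitin ligase of ER degradation is formed by Syvn1 (HRD1) with its adaptor Sel1l. Syvn1 was at -0.26 (95% interval -0.60 to 0.08) and Sel1l at -0.10 (-0.60 to 0.40). Syvn1 was at -0.14 without wild-type replicate 3. Sel1l read 2602, 2743 and 1707 in Vhl-deleted arrays, against 2059, 2517 and 2899 in wild-type arrays. It thus had its lowest and highest values in the same 2 arrays as the chaperones. Of the other kept Sel1l probe sets, 2 had differences of opposite sign (0.03 and 0.10). Edem1, a lectin that picks misfolded glycoproteins for degradation, was at -0.10 (-0.41 to 0.20), while its second probe set was at 0.18 and did not overlap between the groups.

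Herpud1 encodes HERP, an ER membrane protein that stabilises the degradation complex and is induced by both ATF6 and ATF4. It followed another order of arrays, with 2850, 4808 and 4709 in Vhl-deleted arrays, against 4052, 5911 and 4152 in wild-type arrays. The lowest value was in Vhl-deleted replicate 1 and the highest in wild-type replicate 2, and the second probe set gave the same 2 extremes. The difference was -0.21 (95% interval -0.78 to 0.36), and 0.04 without Vhl-deleted replicate 1. Its promoter window was the only one of the members with the second form of the element (ATTGG, any base, CCACG), which 0.0444% of all genes hold, and it also holds the C/EBP-ATF element TGATGNAA; both are in capitals.
Herpud1 (chr8:94386179-94386478, + strand): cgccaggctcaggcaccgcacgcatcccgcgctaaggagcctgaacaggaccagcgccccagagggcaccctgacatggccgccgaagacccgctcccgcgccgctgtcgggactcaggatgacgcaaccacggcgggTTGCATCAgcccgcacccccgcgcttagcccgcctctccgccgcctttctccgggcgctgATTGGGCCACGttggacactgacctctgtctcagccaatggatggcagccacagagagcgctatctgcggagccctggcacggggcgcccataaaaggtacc

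Sec61b encodes a subunit of the Sec61 channel through which new proteins enter the ER. It read 3593, 3756 and 3574 in Vhl-deleted arrays, against 3513, 3460 and 3495 in wild-type arrays. The groups did not overlap, but they lay close together, and the difference was 0.06 (95% interval -0.14 to 0.26, limma adjusted p = 0.944). With median scaling it was -0.0032.

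All 4 genes of the sensor group had negative differences, and none passed. Ern1 was at -0.12 (95% interval -0.39 to 0.16), Eif2ak3 at -0.25 (-0.66 to 0.15) and Atf6 at -0.11 (-0.44 to 0.21). Eif2ak3 read 994, 1261 and 992 in Vhl-deleted arrays, against 1156, 1150 and 1604 in wild-type arrays, with the highest value again in wild-type replicate 3. Atf6 was likewise highest in that array, at 1487 against 1084 to 1182 in the other 5. Without it Eif2ak3 was at -0.10, Ern1 at -0.06 and Atf6 at 0.02.

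Xbp1 encodes the transcription factor made from the mRNA that IRE1 splices. Its brightest probe set read 10984, 12587 and 8115 in Vhl-deleted arrays, against 11386, 11662 and 13097 in wild-type arrays. The groups overlapped, with the lowest value in Vhl-deleted replicate 3 and the highest in wild-type replicate 3. The difference was -0.21 (95% interval -0.61 to 0.19), and the other kept probe sets were at -0.33, -0.24 and 0.0054. Without Vhl-deleted replicate 3 the difference was -0.03. The arrays give 1 signal for each probe set, so the spliced share of Xbp1 was not measured.

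**Figure D4:**
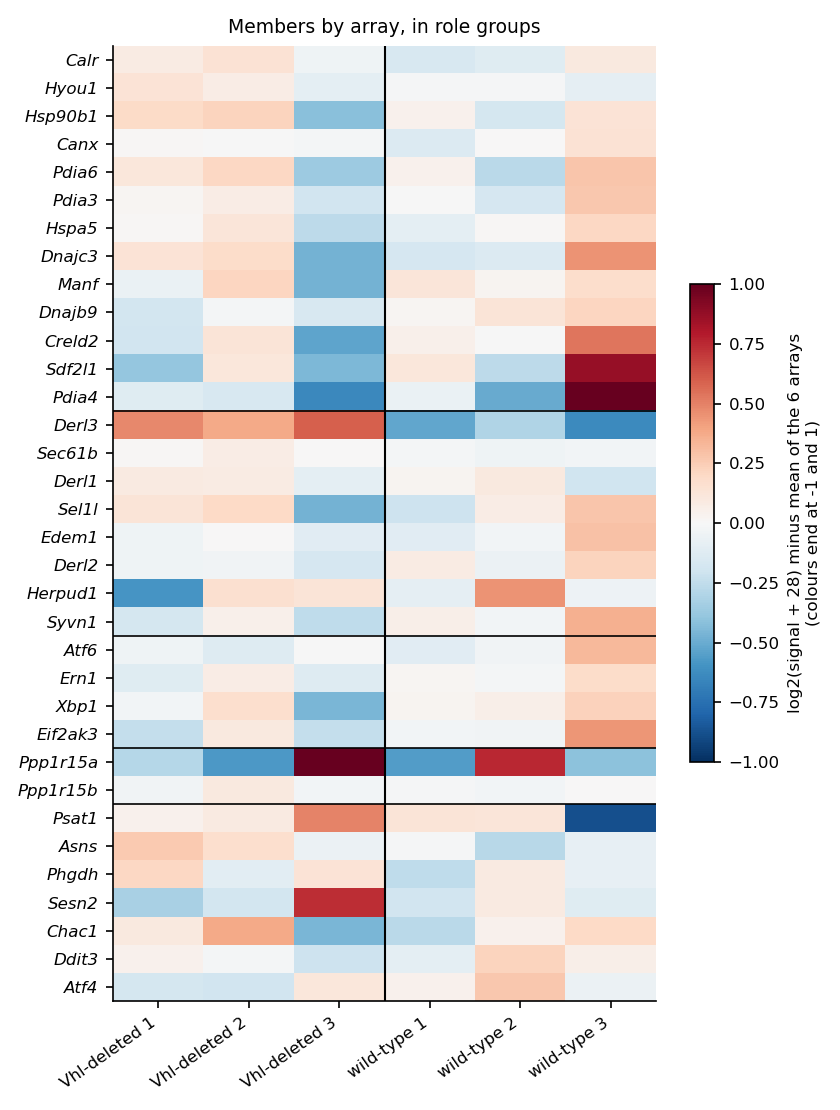
Level of each tested member in each array, as log2(signal + 28) minus the mean of the 6 arrays, with members in rows by role and the arrays in columns (Vhl-deleted left of the line). Most chaperones are blue in Vhl-deleted replicate 3 and red in wild-type replicate 3; Ppp1r15a is red in Vhl-deleted replicate 3 and wild-type replicate 2, and Derl3 is red in all 3 Vhl-deleted arrays.

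The subunits that direct a phosphatase to eIF2alpha differed in how much they varied. Ppp1r15a (GADD34), the inducible subunit that ends the eIF2alpha signal, read 1062, 867 and 2773 in Vhl-deleted arrays, against 873, 2214 and 972 in wild-type arrays. A single array in each group stood above the other 4 arrays. The difference was 0.15 (95% interval -1.04 to 1.33), against -0.36 without Vhl-deleted replicate 3 and 0.56 without wild-type replicate 2. It was also negative without wild-type replicate 1 (-0.10) or 3 (-0.02). The same 2 arrays had the highest mean of 15 tested immediate early genes, the first genes that cells switch on after stimulation or handling: 11.80, 11.56 and 13.03 in Vhl-deleted arrays, against 11.35, 12.97 and 11.57 in wild-type arrays. Their summed signal over 16 genes, 1 of them too dim to be tested, ran from 69458 to 163024 in Vhl-deleted and from 60049 to 157980 in wild-type arrays. With this mean as a covariate Ppp1r15a was at -0.01. The part of tissue handling in these values was not tested. Ppp1r15b (CReP), the constant subunit, read between 1965 and 2155 in Vhl-deleted and between 1973 and 2022 in wild-type arrays, a difference of 0.02 (-0.20 to 0.24), while its dim second probe set was at -0.21.

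The ATF4 group, taken apart from the chaperones, held 9 genes, of which 7 were tested and 0 passed. Atf4 itself was at -0.17 (95% interval -0.48 to 0.15), with 2763, 2742 and 3387 in Vhl-deleted arrays, against 3215, 3783 and 2995 in wild-type arrays. Without wild-type replicate 2 it was at -0.07. ATF4 is controlled mainly at translation, which arrays of mRNA do not measure. Ddit3, which encodes the transcription factor CHOP that acts late in ER stress, read 843, 807 and 706 in Vhl-deleted arrays, against 761, 963 and 855 in wild-type arrays. Its difference was -0.12 (-0.43 to 0.19), and -0.04 without wild-type replicate 2. The groups overlapped.

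Of the ATF4 targets, Asns encodes asparagine synthetase. It read 253, 236 and 197 in Vhl-deleted arrays, against 204, 165 and 193 in wild-type arrays, and the lowest Vhl-deleted value lay within the wild-type range. The difference was 0.25 (95% interval -0.13 to 0.63, limma adjusted p = 0.944), and it was positive in every alternative (0.17 to 0.36). Chac1, which breaks down glutathione, was at 0.02 (-0.57 to 0.61). Sesn2, a sestrin that senses leucine and restrains mTORC1, read 154, 173 and 353 in Vhl-deleted arrays, against 172, 215 and 182 in wild-type arrays. Its high value was in Vhl-deleted replicate 3, and the difference of 0.15 (-0.54 to 0.84) was -0.18 without that array.

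Psat1 and Phgdh are enzymes of the pathway that makes serine from a glycolytic intermediate. Psat1 read 505, 522 and 703 in Vhl-deleted arrays, against 537, 535 and 253 in wild-type arrays. Wild-type replicate 3 stood below the other 5 arrays, and the remaining wild-type arrays lay within the Vhl-deleted range. The difference was 0.42 (95% interval -0.27 to 1.11), and 0.09 without that array. The brightest Phgdh probe set was at 0.16 (-0.18 to 0.51) and at 0.08 without wild-type replicate 1, while the other 3 were at 0.24 to 0.37, each with its lowest value in wild-type replicate 3 (111 to 151) and 2 of them with their highest in Vhl-deleted replicate 3. All 4 Phgdh probe sets carry the suffix that Affymetrix gives to sets open to cross-hybridisation. The second Psat1 probe set was at 0.19, also lowest in wild-type replicate 3. Wild-type replicate 3 was also the array lowest in the tubule markers, whose part in these values was not tested further. With the tubule mean as a covariate Psat1 was at 0.13.

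Trib3, a pseudokinase that feeds back on ATF4, and Slc7a11, the cystine-glutamate exchanger, were too dim to be tested. Both Trib3 probe sets lay between 12.6 and 123 in Vhl-deleted and between 13.0 and 69.4 in wild-type arrays. Both Slc7a11 probe sets lay between 2.60 and 27.2 in Vhl-deleted and between 0.80 and 44.1 in wild-type arrays. Neither gene showed a signal above the filter in the mean of its arrays, and no change is given for them.

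The C/EBP-ATF element TGATGNAA, which ATF4 binds as a dimer with C/EBP proteins, was found in the windows of 4 of 9 genes of this group (44.4%), beside 4.51% of all genes. The genes were Asns, Chac1, Trib3 and Slc7a11, the last with 2 matches, and 2 of these 4 were the dim genes that could not be tested. All elements were searched on both strands. The core letters of the hypoxia response element, ACGTG, were in the windows of 11 of 31 members (35.5%), beside 21.8% of all genes, and 1 of these matches, in Herpud1, overlaps another element named here. The unfolded protein response element TGACGTGG, which contains the hypoxia core, was in 0 of 31 windows, beside 0.714% of all genes. The letters in a window do not say whether a factor binds there.

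Further genes of the same pathways, from lists that do not include the members, gave 0 calls as well. Of 26 other ER folding genes, 25 were tested, 15 with positive and 10 with negative differences, and 0 passed in either direction (median 0.09). Ero1a, the oxidase that passes oxidising power to disulfide isomerases and is known as a HIF target, read 2414, 2441 and 2326 in Vhl-deleted arrays, against 1643, 1591 and 1854 in wild-type arrays. The groups did not overlap and the difference was 0.49 (95% interval 0.26 to 0.73), with a limma adjusted p of 0.380 (0.0374 to 0.992 over the alternatives). It passed with array weights alone, and was at 0.36 with the mean of its kept probe sets. Txndc5, a disulfide isomerase, was at 0.17 and Hspa4l at -0.42 (limma adjusted p = 0.944 each). Hspa4l is an Hsp110-like protein of the cytosol rather than of the ER, though it was on this list. Wild-type replicate 3 read 1107 for Hspa4l, against 498 to 643 in the other 5 arrays, and without it Hspa4l was at -0.13.

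Of 30 other genes of degradation and translocation, 27 were tested, 7 with positive and 20 with negative differences, and 0 passed (median -0.04). Of all 11159 genes tested, 5676 had positive and 5483 negative differences. The mean level of this list was lowest in Vhl-deleted replicate 3 (11.11) and highest in wild-type replicate 3 (11.28), the same arrays as for the chaperones. The lowest p were those of the signal peptidase subunit Spcs1 (0.18), the selenoprotein Selenos (-0.27) and the signal recognition particle receptor subunit Srprb (-0.17). Without wild-type replicate 3 Selenos was at -0.11 and Srprb at -0.08. Of 38 other ATF4 targets, 32 were tested, 19 with positive and 13 with negative differences, and 0 passed (median 0.03). Nupr1, a stress-induced chromatin protein, read 12417, 13296 and 10824 in Vhl-deleted arrays, against 8561, 8388 and 9306 in wild-type arrays. Its groups did not overlap, and the difference was 0.47 (95% interval 0.21 to 0.73, limma adjusted p = 0.620, and 0.0464 to 0.992 over the alternatives). It passed only where both replicates 3 were left out. Shmt2, a mitochondrial enzyme of serine use, was at 0.63 and Aars1, the alanyl-tRNA synthetase listed on the array as Aars, at 0.23 (adjusted p = 0.944 each). Shmt2 was lowest in wild-type replicate 3, as Psat1 was, and stood at 0.27 without that array. With the mean of its kept probe sets Shmt2 was at 0.28. Aars1 was at 0.12 without Vhl-deleted replicate 3.

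The last list, of 10 genes, held eIF2alpha and its other kinases, the site proteases and further transcription factors, and gave 9 tested genes and 0 calls (median 0.07). The gene of eIF2alpha itself was not among the 9 tested. Creb3l1, which encodes the ER membrane transcription factor OASIS, read 277, 257 and 186 in Vhl-deleted arrays, against 427, 319 and 535 in wild-type arrays. Its groups did not overlap, and the difference was -0.75 (95% interval -1.28 to -0.22, limma adjusted p = 0.782). Creb3l1 was at -0.58 without wild-type replicate 3, at -0.60 without Vhl-deleted replicate 3 and at -0.43 without both. The interferon-induced kinase Eif2ak2 (PKR) was at 0.33 and at 0.05 without Vhl-deleted replicate 1. The site 2 protease gene Mbtps2, whose product cuts ATF6, was at 0.13 and at 0.07 without wild-type replicate 1.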

How the data were processed

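The authors deposited linear intensities, made with MAS5 per the submitters' processing notes, which give no version. The values show that each array was scaled to a mean of 500 without the lowest and highest 2%. Of 45101 probe sets, 64 are controls, 34945 have 1 symbol, 932 several and 9160 none; only those with 1 symbol were tested. Symbols came from the array's annotation, updated through Entrez numbers. Values were taken as log2(signal + 28), with 28 the 25th percentile, so changes of dim genes are understated. Probe sets in the upper 50% by mean log2 level were kept, and the brightest stood for its gene. The groups come from the labels, which call the mice biological replicates. The test was that of limma 3.58.1 under R 4.3.3, with its variance trend on intensity and 7.08 total degrees of freedom, and with Benjamini-Hochberg adjustment over 11159 genes and a threshold of 0.05. The fit was tested on simulated data.

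The members and lists were chosen with earlier results of these data known. All members are named, with the 3 genes of lowest p from each further pathway list; of marker and stress lists, genes came from the 2 brightest. Alternatives changed the scaling, pseudocount, filter, probe set choice, variance model, array weights, covariates, threshold and replicate block, and left out arrays. Some list genes were not analysed here. The correlations of same-numbered arrays' deviations from their group means were -0.02, -0.41 and -0.51. They gave no sign that the numbers pair the mice, but with 3 arrays per group they cannot exclude it.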

Additional observations from a re-analysis of the deposited data

How the results depend on the processing

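No member passed in any of the 22 alternatives, and 15 of the 34 tested members kept the sign of their change in all of those that tested them. Derl3 could not be tested without a Vhl-deleted array or among the brightest 30% of probe sets. Against 8 genes called higher and 1 lower, the counts were 30 and 3 with array weights, 30 and 4 with the tubule mean as a covariate, 5 and 0 with the immediate early mean, 15 and 3 at a threshold of 0.10, and 1 and 0 with the replicate block. Lower calls were 0 with median scaling, the mean of kept probe sets, the probe set of largest spread and no intensity trend. Leaving out an array each gave 1 to 13 higher and 0 to 1 lower; without both replicates 3, an alternative chosen after seeing the data, they were 33 and 6. The replicate block changed no member's call. Of the 12 named genes outside the set, whose alternatives were added later, Ero1a passed with array weights (0.55) and Nupr1 without both replicates 3 (0.60), and Srprb turned to 0.014 with the probe set of largest spread.

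The degradation and translocation median was 0.017 with array weights, -0.0051 with the tubule mean, 0.035 without both replicates 3 and -0.19 to -0.0135 with an array left out. The ATF4 group median was 0.018 with no filter, 0.019 among the brightest 30% and -0.0525 without both replicates 3, and 0.077 to 0.23 with an array left out. The median of all genes was -0.057 with median scaling.

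Signs of uncalled members turned as follows; the cause was not tested. With array weights the changes were Hspa5 0.047, Hsp90b1 0.17, Dnajc3 0.19, Pdia3 0.059, Pdia6 0.15, Canx 0.066, Sel1l 0.14, Edem1 0.0101, Ppp1r15a -0.19 and Sesn2 -0.091. With the tubule mean they were Hspa5 0.011, Hsp90b1 0.12, Dnajc3 0.11, Pdia3 0.052, Pdia6 0.13, Canx 0.044, Sel1l 0.0397, Derl1 -0.0042 and Ppp1r15a -0.18. Without both replicates 3 they were Hspa5 0.11, Hsp90b1 0.28, Dnajc3 0.31, Pdia3 0.13, Pdia4 0.14, Pdia6 0.27, Canx 0.072, Sel1l 0.23, Edem1 0.0503, Xbp1 0.029, Ppp1r15a -0.53, Sesn2 -0.20 and Psat1 -0.058. With the immediate early mean Hsp90b1 was at 0.049, Pdia6 at 0.02 and Ppp1r15a at -0.014. With the mean of kept probe sets Edem1 was at 0.037, Derl1 at -0.012 and Ppp1r15b at -0.093, and with the probe set of largest spread Derl1 was at -0.14 and Ppp1r15b at -0.21. With median scaling Derl1 was at -0.0185, Sec61b at -0.0032, Ppp1r15b at -0.041 and Chac1 at -0.041, and with quantile normalization Chac1 was at -0.014.

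With an array left out the ranges were -0.16 to 0.028 for Hspa5, -0.11 to 0.21 for Hsp90b1, -0.22 to 0.11 for Dnajc3, -0.16 to 0.052 for Pdia3, -0.18 to 0.14 for Pdia6, -0.077 to 0.0645 for Canx, -0.34 to 0.038 for Herpud1, -0.23 to 0.11 for Sel1l, -0.19 to 0.018 for Edem1, -0.042 to 0.11 for Derl1, -0.20 to 0.018 for Atf6, -0.36 to 0.56 for Ppp1r15a, -0.0198 to 0.046 for Ppp1r15b, -0.17 to 0.25 for Chac1 and -0.18 to 0.35 for Sesn2.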

Other observations

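Genes of sulfur amino acid metabolism, counted among the ATF4 targets, ran with the tubule markers over the arrays. Cbs, which encodes cystathionine beta-synthase, read 383, 398 and 763 in Vhl-deleted arrays, against 459, 556 and 117 in wild-type arrays. Cth, the next enzyme of that pathway, read 1399, 1246 and 2394 in Vhl-deleted arrays, against 1597, 2224 and 576 in wild-type arrays. Both were highest in Vhl-deleted replicate 3 and lowest in wild-type replicate 3, and neither passed (limma adjusted p = 0.944 each). Atf3, a stress-induced transcription factor, read 932, 463 and 3306 in Vhl-deleted arrays, against 491, 3427 and 442 in wild-type arrays, high in the same 2 arrays as Ppp1r15a. These 3 genes were chosen after their values were seen.

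Heat shock genes, most of them of the cytosol and part of a separate folding response, had a median difference of -0.51 over 11 tested genes, and 0 passed. Of these genes 8 had negative and 3 positive differences, and the list includes the mitochondrial chaperones Hspd1 (0.03) and Hspe1 (0.04). The mean level was 12.24, 12.14 and 12.11 in Vhl-deleted arrays, against 12.46, 12.56 and 12.83 in wild-type arrays, without overlap of the groups, and 7 of the 11 genes did not overlap in the lower direction, beside 5.64% of all genes tested. Hspa8, the brightest tested gene of the list, averaged 30730 ± 2512 in Vhl-deleted and 32641 ± 3040 in wild-type arrays (SD, n = 3 each). Its groups overlapped, and its difference was -0.09. Hspa1b, an inducible Hsp70 gene, read 12506, 8117 and 7264 in Vhl-deleted arrays, against 15314, 16560 and 20295 in wild-type arrays, a difference of -0.93 (95% interval -1.44 to -0.42, limma adjusted p = 0.617). Hspa1a and Hspa1b are near-identical, so their probe sets may share signal.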
